A study of Mus musculus with 7 samples.

Results

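The SOX factors of chondrogenesis are 7 genes for transcription factors with an SRY-related HMG box, Sox5, Sox6, Sox9, Sox4, Sox8, Sox11 and Sox13, and each was followed through the deposited peak lists for 5-methylcytosine (5mC) and 5-hydroxymethylcytosine (5hmC). A peak was assigned to a gene when the authors had given it that gene's symbol, or when it lay in the gene body or within 50 kb of it on the mouse genome GRCm38. By this rule 24 of the 8949 deposited peaks lay at these genes, which are 7 of 21938 annotated protein-coding genes. The windows, each a gene body with 50 kb on either side, ran from 105 kb at Sox4 and Sox8 to 1054 kb at Sox5. The share of peaks is therefore not comparable with the share of genes. Of the 24 peaks, 17 lay at Sox5, 3 at Sox9, 2 at Sox8, 1 at Sox4 and 1 at Sox13, and none lay at Sox6 or Sox11.

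The cells were ATDC5, a mouse teratocarcinoma-derived chondroprogenitor line, and the labels name no genetic change in it. All of them grew in a basal medium with serum and ascorbic acid, and insulin, transferrin and selenite were added to start differentiation. The 7 samples of genomic DNA were 1 of day 0 input, 1 of day 0 progenitors and 1 of day 10 differentiating cells after capture of 5mC, and 2 of day 5 and 2 of day 10 differentiating cells after capture of 5hmC. Each mark and day had 1 list, the 5hmC lists being made from the 2 samples merged, so that no value below has a replicate spread and nothing was tested between lists. The study's text places its profiles at other days than the labels, and it describes the peak calling as a search for gains and losses between stages, so a list may not hold every site of a mark. The lists give positions only, and the depth of the libraries is unknown.

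SOX proteins bind DNA through the HMG box. SOX9 and its relative SOX8 belong to the SOXE group, and SOX9 is the master regulator of the cartilage lineage, required for the formation of cartilage and for Col2a1 and Acan expression. SOX5, SOX6 and SOX13 form the SOXD group, which has no transactivation domain. SOX5 and SOX6 act with SOX9 on cartilage enhancers. SOX4 and SOX11 belong to the SOXC group, which acts in skeletal and neural progenitors. 5mC is the mark written by DNA methyltransferases, mainly at CpG, and 5hmC is its oxidised form, made by TET enzymes and often found in the bodies of active genes and at enhancers.

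The sequences that the results turn on are shown on the plus strand of GRCm38, 5′ to 3′, with each CpG in capitals, since CpG is the site at which both marks are mainly found. The files do not state whether their starts count from 0 or 1, and positions were read as counted from 1 with both ends included. Day 10 5hmC peaks of the genes were 97 to 280 bp wide and those printed are shown whole. The peaks of the other lists were 603 to 1405 bp wide, and the 200 bases around their midpoint are shown. The first 3 are the day 10 5hmC peaks that lay within a day 5 5hmC peak, at Sox5 in the intron before its last exons, at Sox5 upstream of the longer RefSeq transcripts and downstream of Sox8.
Sox5 5hmC day 10, chr6:143845615-143845800: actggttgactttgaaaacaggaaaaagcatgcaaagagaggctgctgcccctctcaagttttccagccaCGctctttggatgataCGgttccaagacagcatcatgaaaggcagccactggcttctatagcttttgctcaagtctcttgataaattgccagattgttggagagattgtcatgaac
Sox5 5hmC day 10, chr6:144278497-144278776: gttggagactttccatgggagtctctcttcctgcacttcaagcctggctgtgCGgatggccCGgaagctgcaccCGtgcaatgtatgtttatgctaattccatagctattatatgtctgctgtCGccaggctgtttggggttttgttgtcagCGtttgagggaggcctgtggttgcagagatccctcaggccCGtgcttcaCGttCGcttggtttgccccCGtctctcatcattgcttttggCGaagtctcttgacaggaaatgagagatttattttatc
Sox8 5hmC day 10, chr17:25551550-25551674: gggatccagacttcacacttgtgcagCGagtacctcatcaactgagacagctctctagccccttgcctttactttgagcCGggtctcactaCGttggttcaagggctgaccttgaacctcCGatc
The next pair are 5hmC peaks near Sox9, first the stretch from the day 5 peak just past the gene's end and then the day 10 peak upstream of the gene.
Sox9 5hmC day 5, midpoint of the peak, chr11:112788400-112788599: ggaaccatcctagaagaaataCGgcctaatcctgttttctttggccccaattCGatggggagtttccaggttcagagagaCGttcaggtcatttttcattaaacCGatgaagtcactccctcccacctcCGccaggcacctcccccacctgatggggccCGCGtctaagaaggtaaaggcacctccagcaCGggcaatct
Sox9 5hmC day 10, chr11:112773380-112773572: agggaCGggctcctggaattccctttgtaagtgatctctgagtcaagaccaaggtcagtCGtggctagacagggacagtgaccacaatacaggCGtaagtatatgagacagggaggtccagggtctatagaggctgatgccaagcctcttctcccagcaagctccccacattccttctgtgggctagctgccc
The stretch from the day 5 5hmC peak upstream of Sox4 held 9 CpG, the most of the 200-base stretches shown here.
Sox4 5hmC day 5, midpoint of the peak, chr13:28959725-28959924: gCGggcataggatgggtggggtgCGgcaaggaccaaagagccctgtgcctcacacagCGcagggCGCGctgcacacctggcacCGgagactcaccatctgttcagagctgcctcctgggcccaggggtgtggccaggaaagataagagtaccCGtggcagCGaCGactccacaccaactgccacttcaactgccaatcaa
The last 3 concern 5mC. They are the 5hmC peak and the 5mC peak of Sox5 that lay closest to each other, and the 5mC peak of Sox13, whose midpoint fell in the intron between exons 11 and 12.
Sox5 5hmC day 10, chr6:144095107-144095203: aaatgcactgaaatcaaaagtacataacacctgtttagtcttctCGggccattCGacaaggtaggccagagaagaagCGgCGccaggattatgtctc
Sox5 5mC day 10, midpoint of the peak, chr6:144107705-144107904: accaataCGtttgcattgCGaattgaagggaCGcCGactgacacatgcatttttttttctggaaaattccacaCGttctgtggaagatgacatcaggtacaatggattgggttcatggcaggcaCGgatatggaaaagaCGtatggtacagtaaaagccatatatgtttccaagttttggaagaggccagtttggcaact
Sox13 5mC day 10, midpoint of the peak, chr1:133385768-133385967: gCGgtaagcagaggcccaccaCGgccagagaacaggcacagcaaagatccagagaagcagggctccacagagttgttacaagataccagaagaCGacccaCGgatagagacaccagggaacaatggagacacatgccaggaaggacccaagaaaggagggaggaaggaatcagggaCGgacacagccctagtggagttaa

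No gene of the 7 had a peak in the day 0 5mC list, in which 1.84% of all protein-coding genes had one by the same rule and 0.501% had one in the gene body. In the day 10 5mC list 2 of 7 genes had a peak, Sox5 and Sox13, against 15.9% of protein-coding genes, and both also had one in the gene body, against 6.03%. In the day 5 5hmC list 4 of 7 had a peak, Sox5, Sox9, Sox4 and Sox8, against 14.0%. Only Sox5 of these had it in the gene body, against 4.57%. In the day 10 5hmC list 3 of 7 had a peak, Sox5, Sox9 and Sox8, against 20.5%, and again only Sox5 had it in the gene body, against 7.0%. With 7 genes these shares move by 14.3 percentage points for each gene, and no test was made of them.

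**Figure D1:**
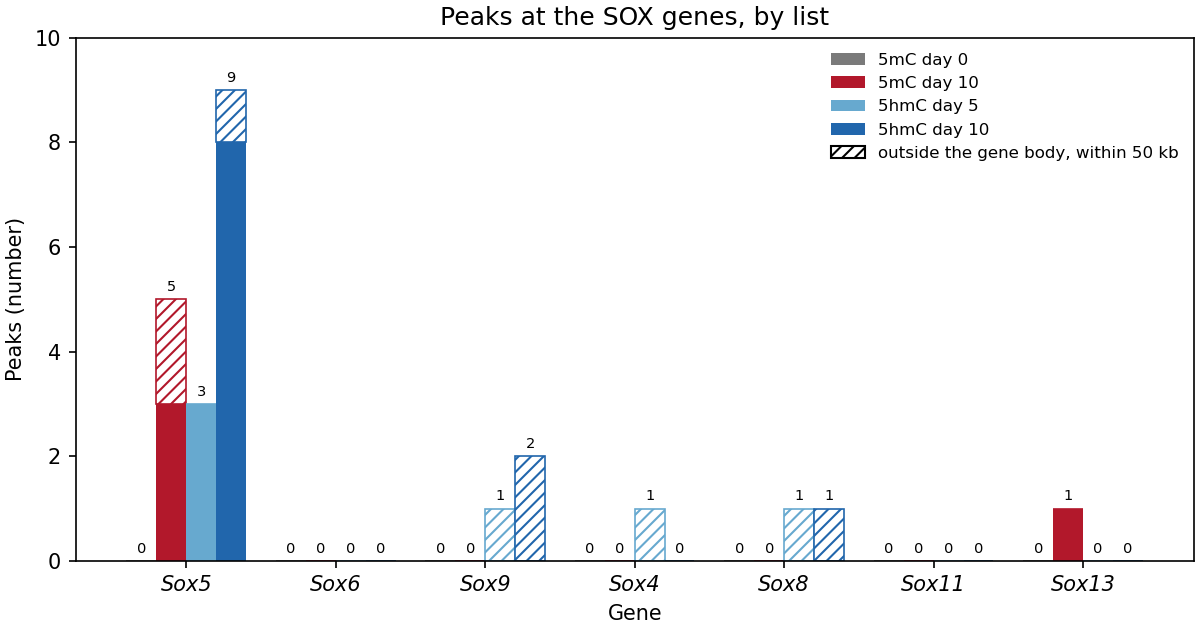
Number of peaks (vertical axis) at each of the 7 SOX genes (horizontal axis) in the 4 lists, with the total above each bar. Filled bars are peaks in the gene body and hatched bars are peaks outside it but within 50 kb. Sox5 had 5, 3 and 9 peaks in the day 10 5mC, day 5 5hmC and day 10 5hmC lists, and no other gene had more than 2 in a list.

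Sox5, which encodes the SOXD partner of SOX9, had by far the most peaks of the 7 genes. It also had the longest window, 1054 kb against 668 kb for Sox6, 142 kb for Sox13 and 105 to 108 kb for the rest. The counts therefore do not rank the 7 genes per length. The annotated body of Sox5 (chr6:143828425-144781977, minus strand) spans 954 kb, and the longer RefSeq transcripts cover the last 381144 bp of it. The stretch before them, beyond 144209568, belongs to the gene in GENCODE and lies outside its curated RefSeq transcripts, the only RefSeq ones read. The body held 0 day 0 5mC, 3 day 10 5mC, 3 day 5 5hmC and 8 day 10 5hmC peaks. Another 2 day 10 5mC peaks lay upstream of it, at 1.91 and 40.5 kb, and 1 day 10 5hmC peak lay 38.6 kb downstream. All 14 peaks in the body were intronic.

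The 8 day 10 5hmC peaks fell in 3 places along the gene. A pair lay near the 3′ end, in introns 10 and 9 of the 14-exon transcript NM_001243163, at chr6:143845615-143845800 and chr6:143862686-143862948. Another 3 lay in its introns 3 and 2, at chr6:144056852-144056958, chr6:144095107-144095203 and chr6:144141512-144141644. The last 3 lay 63.4, 69.1 and 89.7 kb upstream of the start of the longer RefSeq transcripts at chr6:144272935-144273072, chr6:144278497-144278776 and chr6:144299210-144299393, and carry no gene symbol in the files. Each of the 3 places also held 1 of the 3 day 5 5hmC peaks, which were 1124 bp (chr6:143844869-143845992, intron 10), 1019 bp (chr6:144061738-144062756, intron 3) and 725 bp wide (chr6:144278264-144278988, 69.1 kb upstream).

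Both of the outer day 5 peaks contained a day 10 peak whole, 186 bp and 280 bp wide, and these are the first Sox5 sequences shown above. The middle one lay 4780 bp from its nearest day 10 peak. The 186 bp peak held 2 CpG and the 280 bp peak held 10 CpG, so that the sequences listed on both days differed in CpG content (1.08 and 3.57 CpG per 100 bp). The day 5 peak around the first was the poorest in CpG among the genes' day 5 peaks, with 6 CpG in 1124 bp (0.534 per 100 bp).

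The 3 day 10 5mC peaks in the Sox5 body were at chr6:144107503-144108105 in intron 3, chr6:144158398-144159229 in intron 1 and chr6:144374779-144375870, 166 kb upstream of the longer RefSeq transcripts. The upstream pair was at chr6:144783887-144784646 and chr6:144822471-144823349. No 5mC peak shared a base with a 5hmC peak of either day, as was the case for nearly all peaks of the lists. The smallest gap was 12.3 kb, between the 97 bp 5hmC peak and the 603 bp 5mC peak in intron 3, both shown above, and the next was 16.8 kb, across the boundary of introns 2 and 1. In the whole lists 0.696% of day 10 5hmC peaks and 1.17% of day 5 5hmC peaks shared bases with a day 10 5mC peak, and at the SOX genes 0 of 12 and 0 of 6 did. Whether the marks lay side by side in the same cells was not tested. Farther from the gene, another 7 day 10 5mC peaks lay 220 to 560 kb downstream of Sox5, before the next protein-coding gene Etnk1, where the day 10 5hmC list had 2 peaks outside the 50 kb window and the day 5 list 1.

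**Figure D2:**
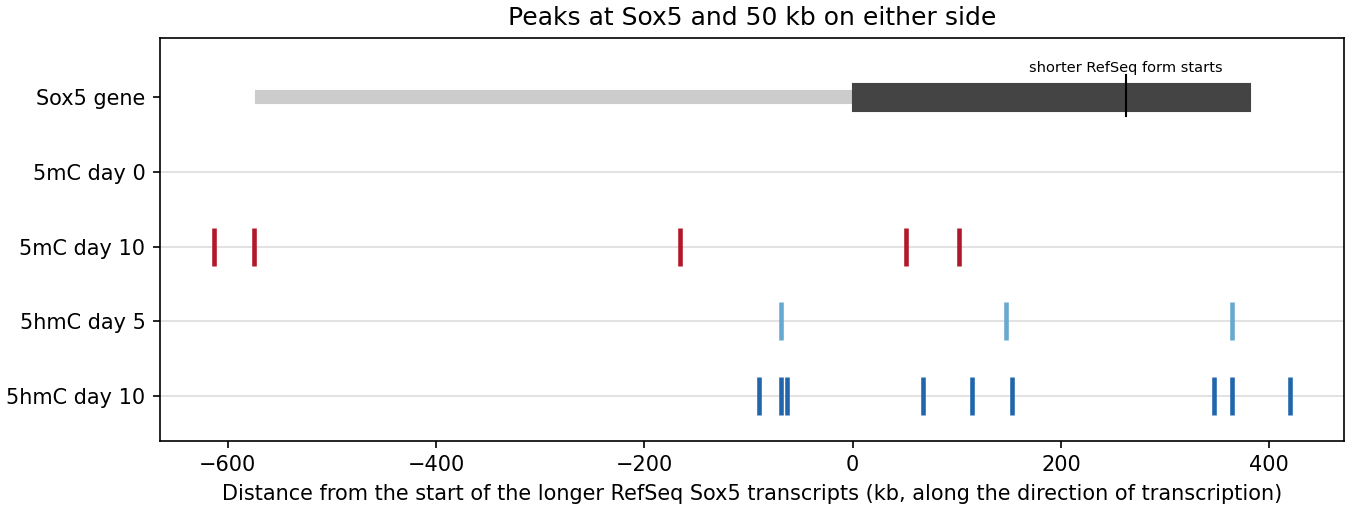
Midpoints of the peaks at Sox5 by list (rows), by distance in kb along the direction of transcription from the start of the longer RefSeq transcripts (horizontal axis). The top row shows the GENCODE gene body in light grey and the longer RefSeq transcripts in dark grey, with the start of the shorter form as a line. The 5hmC peaks in the gene body sit in 3 groups, a ninth day 10 peak lies past the gene's end, and the day 5 peaks 364 kb downstream and 69.1 kb upstream of that start coincide with day 10 peaks.

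Per length, the Sox5 body held 8.39 day 10 5hmC peaks per Mb (95% exact Poisson interval 3.62 to 16.5, for counting error over peaks only) against 1.72 over the autosomes. For day 5 5hmC it held 3.15 per Mb (0.649 to 9.19) against 0.854, and for day 10 5mC 3.15 per Mb (0.649 to 9.19) against 0.996. The autosomal values for day 5 5hmC and day 10 5mC lay inside the interval of Sox5, and that for day 10 5hmC lay below it. Long genes as a class held fewer peaks per length than that. The 218 autosomal protein-coding genes of at least 500 kb held 1.13, 0.494 and 0.691 per Mb in the day 10 5hmC, day 5 5hmC and day 10 5mC lists, and 66.1%, 74.8% and 68.3% of them held none. Among these 218 genes 1 had more day 10 5hmC peaks per Mb than Sox5, namely Foxp1 with 21.8, named after its value was seen. For day 5 5hmC 6 genes and for day 10 5mC 17 genes had more.

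Sox6, the other long SOXD gene and the usual partner of SOX5, was without peaks. Its body (chr7:115470872-116038796, minus strand) spans 568 kb, and it held 0 peaks in all 4 lists, which allows up to 6.50 per Mb for each list by the exact Poisson interval. Sox5 and Sox6 therefore had day 10 5hmC intervals that overlapped, from 3.62 to 6.50 per Mb. Such an overlap does not decide whether the rates of the genes differed, which was not tested. The autosomal value of 1.72 per Mb lay inside the interval of Sox6. The nearest day 5 5hmC peak lay 72.7 kb upstream of Sox6, the nearest day 10 5hmC peak 725 kb downstream and the nearest day 10 5mC peak 543 kb downstream. The window of Sox6 was the poorest in CpG of the 7, with 0.717 CpG per 100 bp against 1.08 for Sox5 and 1.43 for Sox8, the richest. The part of CpG content in the number of peaks was not tested.

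**Figure D3:**
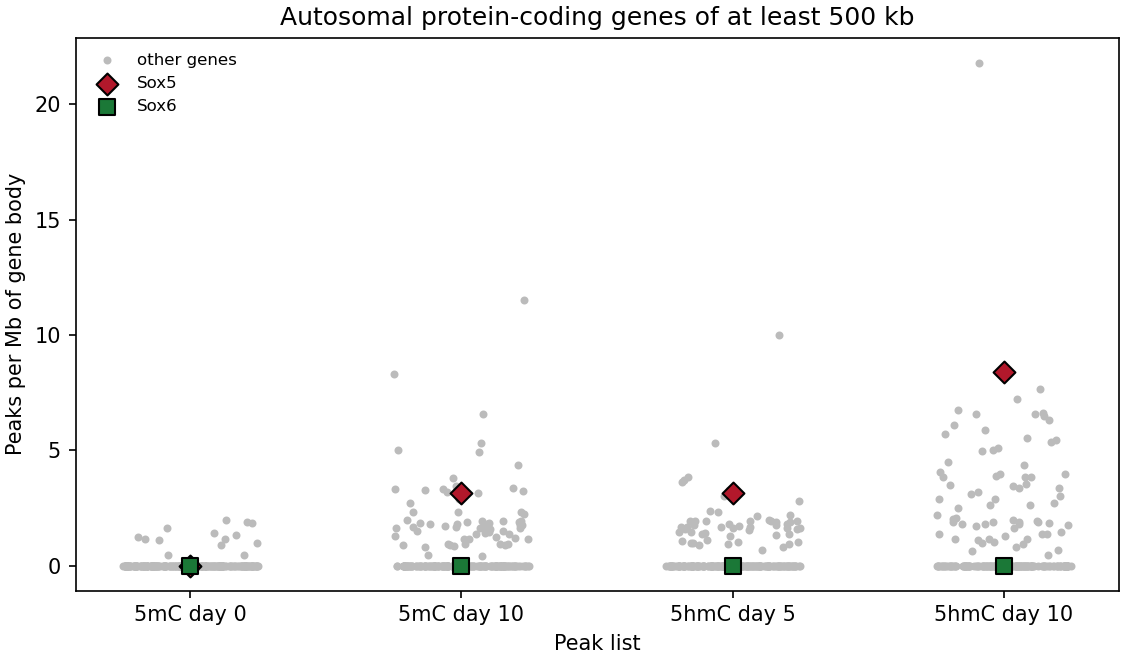
Peaks per Mb of gene body (vertical axis) in the 4 lists (horizontal axis) for the 218 autosomal protein-coding genes of at least 500 kb, each grey point being 1 gene, with Sox5 as a diamond and Sox6 as a square. Sox5 lies at 3.15, 3.15 and 8.39 per Mb in the last 3 lists, with 17, 6 and 1 genes above it, and Sox6 lies at 0 in all 4.

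The genes whose body counts were most like those of Sox5, by the summed difference of their counts from 0, 3, 3 and 8 over the 4 lists, were Wwox, Maml3, Creb5, Lrmda and Atxn1. Wwox, a gene of 913 kb for an oxidoreductase, had 0, 3, 1 and 7 peaks. Maml3, which encodes a Notch coactivator, had 0, 2, 2 and 7, and Creb5, which encodes a transcription factor, had 0, 1, 3 and 7. Lrmda had 0, 2, 1 and 7, and Atxn1, the gene of the ataxin-1 protein, had 0, 3, 3 and 4. The summed differences were 3 for the first 3 genes and 4 for the last 2, over 4 lists, and all 5 genes were at least 413 kb long. No other protein-coding gene had the counts of Sox5 over its whole window.

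Sox13, the third SOXD gene, had a peak in the day 10 5mC list alone. Its body (chr1:133382303-133424377, minus strand) spans 42.1 kb, and 1 day 10 5mC peak of 928 bp lay in it at chr1:133385404-133386331. It was the only peak of the 24 over coding sequence. It covered exons 10, 11 and 12 of the 14 exons of NM_011439 whole, 351 exonic bases in all, with 577 intronic bases around them. It had 20 CpG and the highest GC content of the 24 peaks, 57.4%. The nearest 5hmC peaks lay 193 kb (day 5) and 172 kb (day 10) away. The pattern of 1 day 10 5mC peak and no other was shared with 1614 protein-coding genes, 7.36% of all.

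Sox9 (chr11:112782224-112787760, plus strand), the SOXE gene that directs chondrogenesis, had no peak of any list in its 5.54 kb body. The day 5 5hmC list had a peak of 1405 bp that began 37 bp past its annotated end at chr11:112787797-112789201, and it carried the symbol Sox9. It was the widest of the genes' 24 peaks and held 22 CpG (1.57 per 100 bp). No day 10 5hmC peak shared bases with it. The day 10 list had instead a peak of 193 bp at chr11:112773380-112773572, 8.65 kb upstream of the gene in an intron of the noncoding gene BC006965. It also had a peak of 173 bp that lay 46.5 kb downstream, near the edge of the window, with 52.0% of its bases in repeats. No 5mC peak lay within 50 kb, and the nearest were 519 kb (day 0) and 319 kb (day 10) away. The counts of Sox9 in the 4 lists (0, 0, 1 and 2) were shared with 208 protein-coding genes, 0.948% of all. The study's text reports, from earlier work at a later day, a 5hmC peak at the start of Sox9 and another near its body. The lack of a listed peak in the body therefore does not show that Sox9 lacks the mark.

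Beyond the 50 kb window, Sox9 stands in a long stretch without other protein-coding genes, 1705 kb to Kcnj2 upstream and 457 kb to Slc39a11 downstream. This stretch is known in mammals to hold distant Sox9 enhancers. It was looked at after the 50 kb values had been seen, as were the stretches around the other genes. Between Kcnj2 and Slc39a11 there were 20 day 10 5hmC peaks, 3 day 5 5hmC peaks, 4 day 10 5mC peaks and 1 day 0 5mC peak. Of the 20, 18 lay upstream of Sox9 and 17 of those beyond 50 kb. They were not spread evenly, as 15 of them lay between 236 and 943 kb upstream of the gene, 1 lay at 1116 kb and 1 at 1453 kb, and none between 8.65 and 236 kb. No protein-coding gene lies nearer to these than Sox9 or Kcnj2, but whether they act on a gene was not measured.

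The interval from Kcnj2 to Sox9 held 18 day 10 5hmC peaks, 10.6 per Mb. Among the 248 autosomal intervals of at least 1 Mb between neighbouring protein-coding genes this was the highest value. The next were 7.45 per Mb between Klf4 and Actl7b and 6.91 per Mb between Rnf144b and Id4, intervals named after their values were seen. The 248 intervals together held 171 such peaks, 0.380 per Mb, and 172 of the intervals held none. The other lists did not single out the interval to the same extent, as 6 intervals had more day 10 5mC peaks per Mb than its 1.76, 30 had more day 5 5hmC peaks than its 0.586 and 36 had more day 0 5mC peaks than its 0.586. The lists differ in length and enrichment threshold, and these ranks were read for each list on its own.

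At 2 positions around Sox9 the days of 5hmC met. The 1182 bp day 5 peak at chr11:112238730-112239911, 542 kb upstream, contained the day 10 peaks at chr11:112239018-112239194 and chr11:112239199-112239619. The 884 bp day 5 peak at chr11:112937846-112938729, 150 kb downstream, contained the day 10 peak at chr11:112938048-112938367. The day 0 5mC peak at chr11:112262259-112262961 lay 519 kb upstream, within the same cluster of day 10 5hmC peaks, and shared no base with any of them. It held 3 CpG (0.427 per 100 bp), in a list with a median of 0.523 per 100 bp against 2.42 in the day 10 5mC list. The 20 day 10 peaks had a median width of 176 bp and a median of 1.99 CpG per 100 bp, against 147 bp and 1.80 in the whole list. Of the 20, 5 held a SOX string (ACAAAGG or ACAATGG on either strand), 2 an AP-1 string, 2 a RUNX string and 2 an NF1 string. Of the 2460 day 10 5hmC peaks within 25% of 176 bp, 5.37%, 8.05%, 6.67% and 4.92% held them. The 20 peaks were 109 to 421 bp wide, so some fell outside that range and the 2 sets are not matched in width. These strings were counted in a stretch chosen after seeing the data, and none of the counts was tested.

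**Figure D4:**
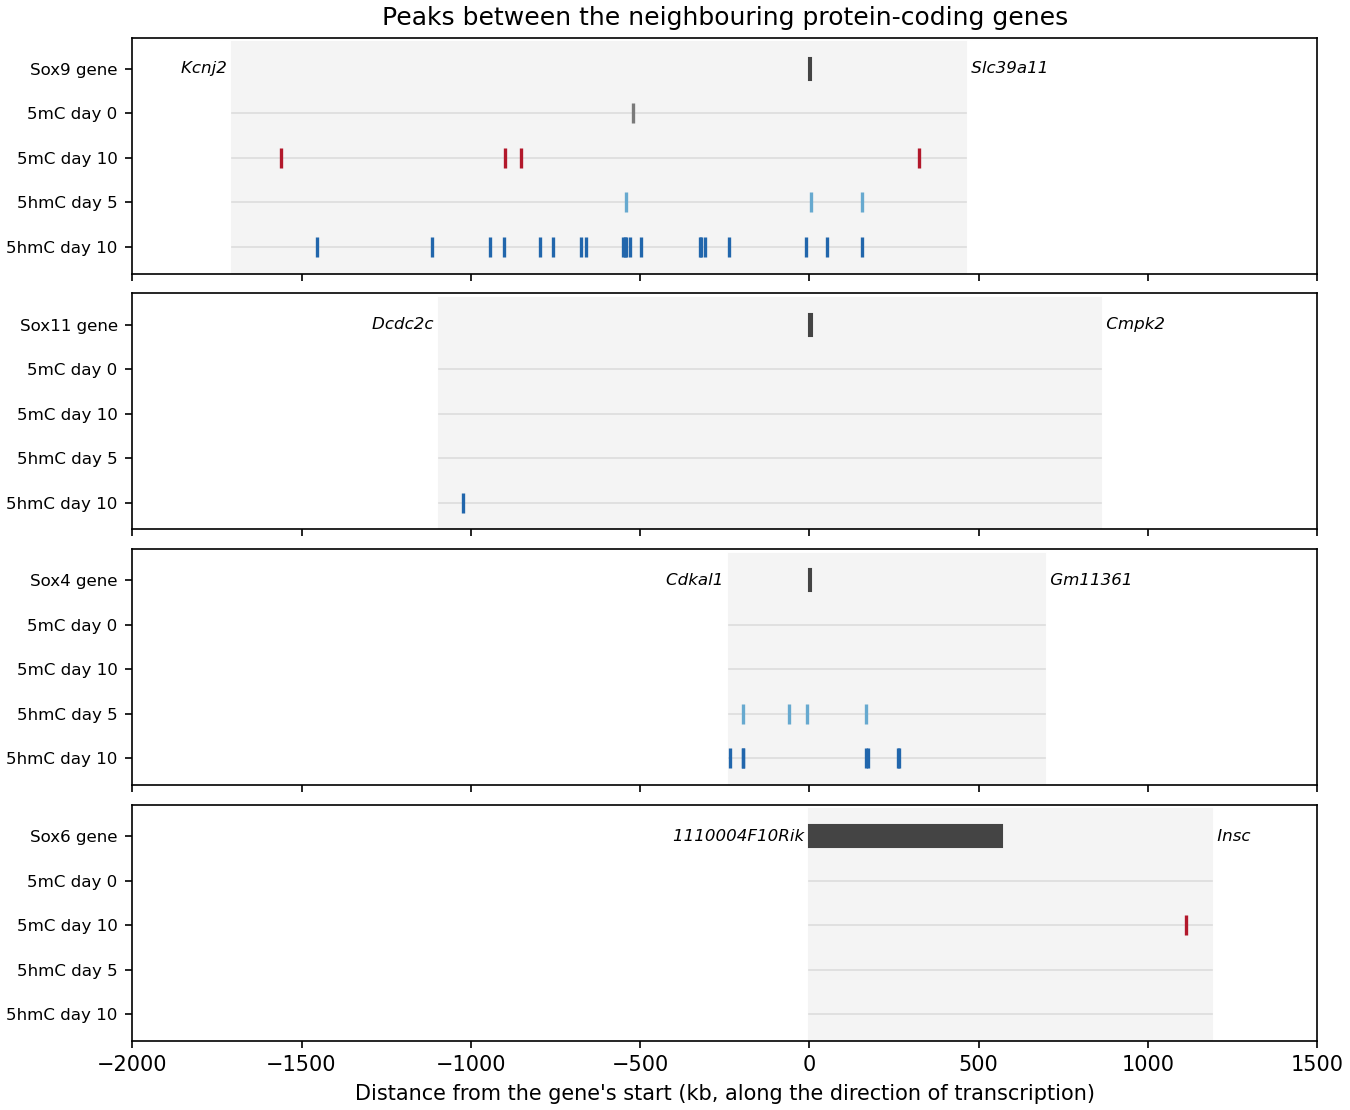
Midpoints of peaks by list (rows) between the neighbouring protein-coding genes of Sox9, Sox11, Sox4 and Sox6 (panels), by distance in kb from the start of each gene along its direction of transcription (horizontal axis). Grey shading marks the stretch between the neighbours named at its ends, and the dark block is the gene. The Sox9 stretch of 2168 kb holds 20 day 10 5hmC peaks and the Sox11 stretch of 1958 kb holds 1.

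Sox8 (chr17:25565892-25570686, minus strand), the other SOXE gene studied, had 1 5hmC peak in each 5hmC list at the same place. The 894 bp day 5 peak at chr17:25551038-25551931 lay 14.0 kb downstream of the gene, and the 125 bp day 10 peak at chr17:25551550-25551674 lay inside it. Neither carried a symbol. The day 10 peak held 4 CpG (3.20 per 100 bp), shown above, and the day 5 peak 16 CpG (1.79 per 100 bp). The nearest 5mC peaks were 474 kb (day 10) and 2033 kb (day 0) away. The counts of Sox8 were shared with 625 protein-coding genes, 2.85% of all.

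**Figure D5:**
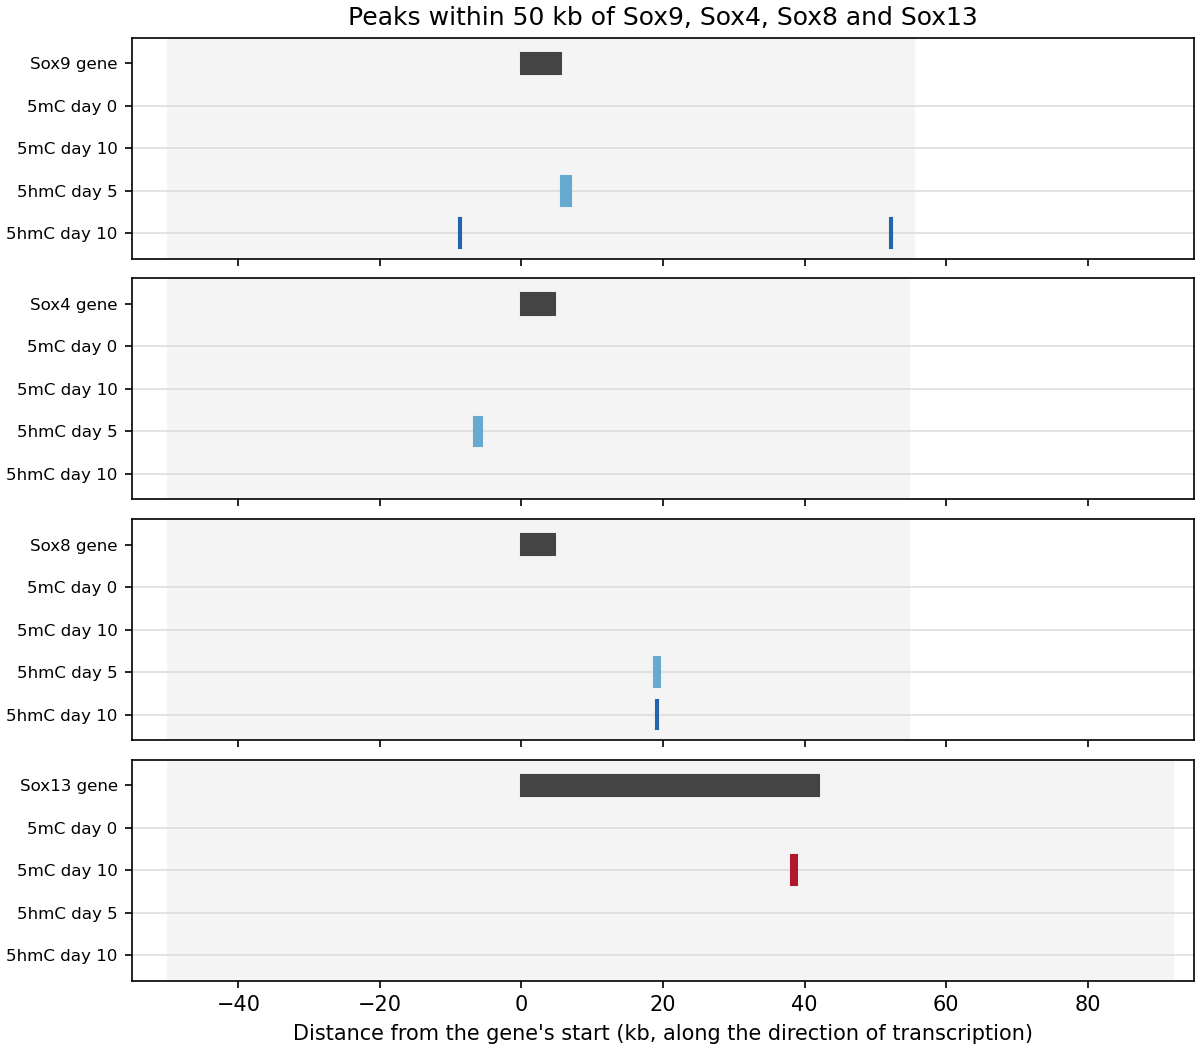
Peaks by list (rows) within 50 kb of Sox9, Sox4, Sox8 and Sox13 (panels), by distance in kb from the start of each gene along its direction of transcription (horizontal axis). Grey shading marks the window and the dark block the gene body, and the narrowest peaks are drawn slightly wider than they are. The Sox8 peaks of both days lie at the same place, those of Sox9 do not, and Sox4 has a day 5 peak only.

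Sox4 (chr13:28948919-28953713, minus strand), a SOXC gene, had 1 peak within 50 kb, and it was in the day 5 5hmC list. The peak was 1053 bp wide, lay 5.58 kb upstream of the gene at chr13:28959298-28960350 and carried the symbol Sox4. With 40 CpG it held more CpG than any other of the 24 peaks, and its 3.80 CpG per 100 bp compares with a median of 1.61 in the day 5 list. The nearest day 10 5hmC peak was 162 kb away. Between its neighbours Gm11361 and Cdkal1 (934 kb) there were 4 day 5 and 7 day 10 5hmC peaks and no 5mC peak. Of the 7 day 10 peaks, 3 lay inside day 5 peaks. Of these, 1 lay 162 kb downstream in an intron of the noncoding gene 2610307P16Rik, and a pair that touch end to end lay 195 kb upstream. The counts of Sox4 within 50 kb were shared with 1024 protein-coding genes, 4.67% of all.

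Sox11 (chr12:27334264-27342574, minus strand), the SOXC gene closest in role to Sox4, had no peak within 50 kb in any list. The nearest 5hmC peaks were 946 kb (day 5) and 921 kb (day 10) away and the nearest day 10 5mC peak 4114 kb away, and its chromosome had no day 0 5mC peak. Its stretch without other protein-coding genes, 1958 kb from Cmpk2 to Dcdc2c, is nearly as long as that of Sox9, and it held 1 day 10 5hmC peak, 0.511 per Mb (95% exact Poisson interval 0.0129 to 2.85) against 9.22 (5.63 to 14.2) around Sox9. These intervals cover counting error only, and both stretches were looked at after the 50 kb values had been seen. The difference between the stretches was not tested. The stretch around Sox9 includes the interval with the highest value of the 248 of at least 1 Mb. The interval from Sox11 to Dcdc2c, 1095 kb long, held 0.913 day 10 5hmC peaks per Mb, against 0.380 over those 248 together. Of the 248, 34 had more per Mb and 172 held none. The absence of a peak in every list, as at Sox6 and Sox11, was shared with 13815 protein-coding genes, 63.0% of all.

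The peaks at the SOX genes resembled those of their lists in width. Day 10 5hmC peaks had a median width of 159 bp at the genes and 147 bp in the list, day 5 5hmC peaks 1036 and 819 bp, and day 10 5mC peaks 856 and 1006 bp. The 6 peaks of day 5 and the 12 of day 10 thus differed in width by more than they differed from their own lists, and the narrow day 10 peaks could lie inside the wide day 5 ones but not the reverse. Medians of CpG per 100 bp were 1.91 and 1.80 for day 10 5hmC, 1.83 and 1.61 for day 5 5hmC, and 2.18 and 2.42 for day 10 5mC, the genes first. Of the genes' 12 day 10 5hmC peaks, 3 shared bases with a day 5 peak, against 17.1% of the list, and of the 6 day 5 peaks 3 shared bases with a day 10 peak, against 29.6%.

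Strings bound by factors of the cartilage lineage were looked for in the 24 peaks on either strand. A SOX string (ACAAAGG or ACAATGG) was in 1 of 12 day 10 5hmC peaks, 1 of 6 day 5 5hmC peaks and 2 of 6 day 10 5mC peaks, against 5.38%, 27.2% and 30.2% of the lists. The day 10 one was the peak 8.65 kb upstream of Sox9, with ACAAAGG on the minus strand from base 22 and the AP-1 string TGACTCA, its reverse complement TGAGTCA being counted as the same site, at base 39. Of the day 10 5hmC peaks within 25% of its width, 6.41% held a SOX string and 8.51% an AP-1 string. The 5mC ones were in Sox5 intron 3, at base 301 of the peak, and in Sox13, at base 484, both ACAATGG and both inside the stretches shown above.

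An AP-1 string was in 2 of the 12 day 10, 1 of the 6 day 5 and 0 of the 6 5mC peaks, against 7.97%, 43.1% and 13.4% of the lists. The day 5 peak in Sox5 intron 3 held 4 of them, 3 of them starting at bases 893, 913 and 930. The RUNX string AACCACA was in 2 of 12, 3 of 6 and 1 of 6, against 7.56%, 25.6% and 19.8%. The upstream Sox5 day 5 peak held 3 of these, and 1 of them was inside the day 10 peak that it contains, at base 168. The NF1 string CTGCCAAG was in the day 5 peak of Sox4 and no peak held TTGCCAAG, against 14.2% of day 5 peaks with either. Each of these matches is a string in the reference and no binding was measured.

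Of the 13 other genes of the SOX family, 3 had a peak in any list by the same rule and 10 had none, against 37.0% of all protein-coding genes with a peak in any list. The 3 were 1 of 13 in each of the day 10 5mC, day 5 5hmC and day 10 5hmC lists, against 15.9%, 14.0% and 20.5%. Sox1, a SOXB gene of the neural lineage, had a day 10 5mC peak 30.7 kb downstream (chr8:12430808-12431778). Sox10, the SOXE gene of the neural crest, had a day 5 5hmC peak 11.4 kb upstream (chr15:79176599-79177529). Sox12, a SOXC gene, had a day 10 5hmC peak 0.604 kb upstream (chr2:152398667-152399003), with its symbol. None of them had a peak in the gene body, so that Sox5 and Sox13 were the only SOX genes of the 20 with a peak there.

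The genes that SOX9 is known to act on were counted in the same way. Of 13 cartilage matrix genes, 7 had a day 10 5hmC peak, against 20.5% of protein-coding genes, 1 had a day 5 5hmC peak, against 14.0%, and none had a 5mC peak of day 10, against 15.9%, or of day 0, against 1.84%. In a set of 13 genes each gene makes 7.69%, so these low counts do not show a lack of peaks, and none was tested. At day 10 the peaks of Col11a2 (a fibrillar collagen), Hapln1 (the link protein of aggrecan), Matn3 (a matrilin) and Scrg1 (a secreted protein of differentiating chondrocytes) lay in the gene body. Those of Col2a1, the main cartilage collagen, Col11a1 and Comp lay 23.0 kb upstream, 1.97 kb upstream and 37.2 kb downstream. The day 5 peak was 37.3 kb upstream of Matn1. The other 5 of the 13, Acan, Col9a1, Col9a2, Col9a3 and Cnmd, had no peak in any list. The study's text describes 5hmC on Acan as rising during differentiation, so the lack of a listed peak does not show that Acan lacks the mark. Day 10 and day 5 5hmC peaks were thus found at 7 and 1 of the matrix genes and at 3 and 4 of the 7 SOX genes. The day 10 list holds 4164 peaks and the day 5 list 2058, and the sets were chosen with earlier results of these data known. The difference between these sets was not tested.

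Of 8 signals upstream of SOX9 in cartilage, 5 had a day 5 and 3 a day 10 5hmC peak, against 14.0% and 20.5%. At day 5 these were Bmpr1a and Bmpr1b (BMP receptors), Fgfr3, Pthlh and Pth1r, and at day 10 Bmpr1a, Ihh and Pth1r. Only the peaks of Bmpr1b and Pthlh at day 5 and of Pth1r at day 10 lay in the gene body. At day 5 the others lay 47.4 kb downstream and 45.1 kb upstream of Bmpr1a, 36.6 kb upstream of Fgfr3 and 34.5 kb upstream of Pth1r. At day 10 they lay 45.3 kb upstream of Bmpr1a and 49.6 kb upstream of Ihh. The Bmpr1a peaks carried the symbols Fam25c and Ldb3, and the Ihh peak Nhej1. The day 10 5mC list had Bmpr1b, in the gene body, and Shh, 16.1 kb downstream, 2 of 8 against 15.9%. Of 11 partners and coactivators, 3 had a day 5 5hmC peak, 6 a day 10 5hmC peak and 2 a day 10 5mC peak, against 14.0%, 20.5% and 15.9%. Runx2, the osteoblast and hypertrophic chondrocyte factor, was in all 3 of these lists with 2, 3 and 1 peaks in its body. Arid5b, a coactivator of SOX9, had 2 day 10 5hmC and 3 day 10 5mC peaks in its body. Trps1 had 1 peak of each 5hmC list in its body and Ppargc1a had 1 of each upstream. Wwp2 and Ctnnb1 had a day 10 5hmC peak outside the body, with the symbols Nqo1 and Ulk4 in the files. No gene of these 3 sets had a day 0 5mC peak.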

How the data were processed

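ATDC5 genomic DNA was enriched by the authors for 5mC with a methyl-CpG binding protein complex and for 5hmC by biotin tagging of a transferred sugar. Per the study's methods and processing notes, single-end reads were checked with FastQC, trimmed with cutadapt, aligned with BWA to GRCm38 and searched for peaks with MACS 1.4.2. The deposited files are peak positions, some of which the authors paired with a gene symbol, and they carry no score, count or p-value. Regions had to be enriched 3-fold or more for 5mC and 10-fold or more for 5hmC, where samples had been merged by day, according to the headers of the files. The control behind each list is not given in the sources used here, and another control, threshold or depth would change the number and width of peaks.

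Gene bodies came from GENCODE mouse release 21 and introns, exons and sequence from RefSeq GRCm38.p6. Overlap meant at least 1 shared bp. Empty rows were dropped and no peak was filtered. Intervals are exact Poisson at the 95% level and cover counting error only. With 1 list for each mark and day no test was made. The members and gene lists were chosen with earlier results of these data known. Named genes were the 7 members, genes whose symbol the authors gave to their peaks, listed family and pathway genes with a peak, and the 5 genes most like Sox5 in body counts (ties by gene length). Outside this rule, the neighbouring genes that bound a stretch, and the gene and intervals with the highest values in a ranking, were named after their values were seen. The 5 listed matrix genes without a peak in any list were named as well. Other windows, the authors' symbols alone, merged peaks, repeats and overlap rules were tried as alternatives. The counting code was tested on simulated data. The input sample was not analysed here. Python 3.11.15, numpy 2.4.6, scipy 1.17.1 and matplotlib 3.10.9 were used.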

Additional observations from a re-analysis of the deposited data

How the results depend on the processing

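No paired analysis was possible and no replicate could be left out, because each list was 1 sample or 2 merged ones. The number of members with a peak (main values 0, 2, 4 and 3 for day 0 5mC, day 10 5mC, day 5 5hmC and day 10 5hmC) fell to 1 for day 5 5hmC and to 1 for day 10 5hmC with the gene body alone and with the gene body and 5 kb upstream, and to 1 for day 10 5hmC by the authors' symbol alone. Peaks at members (0, 6, 6 and 12) fell for day 5 5hmC to 3 with the gene body, with or without 5 kb upstream, and by symbol alone to 3 for day 10 5mC and 5 for day 10 5hmC. For Sox5 (0, 5, 3 and 9), symbol alone gave 2 for day 10 5mC and 5 for day 10 5hmC, and the gene body alone gave 3 for day 10 5mC. Out to the neighbouring protein-coding genes, chosen after seeing the data, members with a peak were 1, 4, 4 and 5, peaks at members 1, 19, 13 and 40, and peaks at Sox5 0, 12, 5 and 11. With 50% of both peaks shared, 0 in place of 3 day 10 5hmC peaks matched a day 5 peak, since day 10 peaks were narrow. A 100 kb window, midpoints, merging within 1 kb, leaving out peaks of at least 50% repeat and a gap of up to 500 bp kept every count within 1.5 times its main value. The unknown depth means that a list without a peak does not show a site without the mark.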
